A study of Mus musculus with 18 samples.

Results

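The mark H3K27me3 was followed over T-box genes in peak lists of mouse headfolds at embryonic day 8.5. The headfolds are the paired folds at the front of the embryo that give rise to the brain. The 10 members were T, Eomes, Tbx1, Tbx2, Tbx3, Tbx4, Tbx5, Tbx15, Tbx18 and Tbx20, taken by name from the 21887 protein-coding genes of the annotation. The members were chosen with earlier results of these data known. Shares of members set beside shares of all genes therefore describe these 10 genes only. The mouse has 7 further T-box genes that were read the same way for comparison. T-box genes encode transcription factors that share a DNA-binding domain named after the founding member, T (brachyury). They direct the formation of mesoderm and endoderm at gastrulation and later pattern the heart, limbs, pharynx and axial skeleton. The mark, trimethylation of a lysine in the tail of histone H3, is placed by the Polycomb repressive complex 2 and lies in broad stretches over developmental regulators in cells that do not use them.

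The study asked how maternal vitamin C and genetic background bear on chromatin of the embryo. All embryos were Gulo-/-, so they lacked the last enzyme of vitamin C synthesis, and depended on supply from the dam. The 4 groups were B6 embryos without vitamin C, B6 embryos with vitamin C, 129 embryos without vitamin C and 129 embryos with vitamin C, where supply was 3.3 g/l in the drinking water. Each group held 3 libraries used here, from 2 female and 1 male embryos, and each library came from 1 headfold profiled by CUT&Tag, in which an antibody guides a transposase to the mark. No group had a Gulo+/+ reference, and the peak lists hold no reading of the Gulo allele, so the genotype rests on the labels. In the B6 group with vitamin C all 3 embryos carried the same pregnancy code, so diet and litter cannot be told apart in B6, whereas each of the other groups had 3 codes. Pregnancy codes of B6 and 129 fall in separate number ranges, and the sample labels name no batch. Background and any difference in the handling of embryos or libraries therefore cannot be told apart either. The series holds 18 samples, and 4 IgG controls and 2 further B6 samples for H3K27me3 were not analysed here.

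A headfold holds neural plate, surface ectoderm, mesoderm and other cells. In such a mixture, a mark in some of the cells and a weaker mark in all of them cannot be told apart. As a check of the tissue, genes of the anterior neural plate were read, although a repressive mark does not show expression. Hesx1 was marked in 0 libraries, Sox2 in 2 and Otx2 in 3, while Six3, Rax, Lhx2 and Pax6 were marked in at least 10. Of 5 genes used by every cell, 4 were marked in 0 libraries and Actb in 1.

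The lists differed in length. They held 748 to 4726 peaks with a median width per list of 1.32 to 8.45 kb, and covered 3.58 to 31.7 Mb of the genome. A gene counted as marked where a peak of the library overlapped its window, the gene span with 1 kb added at each end, by at least 1 bp. Read depth is not given by the lists, so a gene without a peak was not called at that library's depth, and absence of the mark does not follow.

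The promoters that the comparison turns on are shown first, with each CpG, the dinucleotide that is dense in many Polycomb targets, in capitals. Each sequence runs from 250 bases before to 50 bases after an annotated transcription start, 5′ to 3′ on the gene's strand, from RefSeq on mm10 (GRCm38.p6). The table held 7 windows for 6 of the 10 members. Those printed are the members with the highest coverage that the table holds (Tbx1 with both of its starts, T and Eomes), the member with the lowest (Tbx20), and Mga, a T-box gene at which peaks were called in 0 libraries.
Tbx1 (chr16:18588850-18589149, minus strand): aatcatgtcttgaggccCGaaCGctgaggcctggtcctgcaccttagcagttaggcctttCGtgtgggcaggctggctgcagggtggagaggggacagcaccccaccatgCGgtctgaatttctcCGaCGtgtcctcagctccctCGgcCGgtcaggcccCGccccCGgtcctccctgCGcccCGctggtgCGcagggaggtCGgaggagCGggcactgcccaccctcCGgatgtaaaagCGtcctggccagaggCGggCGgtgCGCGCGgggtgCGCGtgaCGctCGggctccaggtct
Tbx1, the second start (chr16:18590622-18590921, minus strand): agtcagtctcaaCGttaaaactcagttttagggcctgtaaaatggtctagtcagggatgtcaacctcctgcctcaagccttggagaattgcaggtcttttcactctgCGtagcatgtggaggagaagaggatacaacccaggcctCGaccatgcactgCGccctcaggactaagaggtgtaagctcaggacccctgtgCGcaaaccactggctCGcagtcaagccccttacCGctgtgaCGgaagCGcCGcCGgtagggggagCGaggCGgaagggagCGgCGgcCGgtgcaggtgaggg
T (chr17:8434173-8434472, plus strand): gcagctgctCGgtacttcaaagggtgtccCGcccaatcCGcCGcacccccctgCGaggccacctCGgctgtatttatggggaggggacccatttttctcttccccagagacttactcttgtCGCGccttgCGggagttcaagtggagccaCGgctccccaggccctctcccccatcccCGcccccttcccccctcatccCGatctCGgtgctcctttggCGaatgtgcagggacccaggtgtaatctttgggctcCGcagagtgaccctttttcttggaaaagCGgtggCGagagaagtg
Eomes (chr9:118477939-118478238, plus strand): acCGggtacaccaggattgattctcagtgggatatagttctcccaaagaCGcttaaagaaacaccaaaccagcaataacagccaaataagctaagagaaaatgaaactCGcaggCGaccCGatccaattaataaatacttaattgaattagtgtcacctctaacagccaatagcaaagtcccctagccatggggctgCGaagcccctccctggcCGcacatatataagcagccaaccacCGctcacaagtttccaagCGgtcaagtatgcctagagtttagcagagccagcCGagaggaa
Tbx20 (chr9:24774254-24774553, minus strand): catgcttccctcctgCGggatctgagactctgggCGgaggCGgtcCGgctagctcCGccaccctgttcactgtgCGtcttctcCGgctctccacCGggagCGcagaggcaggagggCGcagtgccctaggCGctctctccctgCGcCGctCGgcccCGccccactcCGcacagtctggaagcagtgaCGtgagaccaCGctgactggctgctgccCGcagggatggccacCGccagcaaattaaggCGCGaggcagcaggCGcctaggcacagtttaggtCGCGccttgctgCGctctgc
Mga (chr2:119896978-119897277, plus strand): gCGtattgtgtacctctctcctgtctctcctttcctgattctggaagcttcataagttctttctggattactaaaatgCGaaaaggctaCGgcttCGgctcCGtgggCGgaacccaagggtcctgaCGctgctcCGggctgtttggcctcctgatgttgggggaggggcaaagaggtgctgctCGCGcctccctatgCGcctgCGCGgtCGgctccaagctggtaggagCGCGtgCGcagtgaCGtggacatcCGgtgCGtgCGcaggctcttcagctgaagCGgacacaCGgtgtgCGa

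Both Tbx1 promoter windows lay under a peak in all 12 libraries, and those of T, Eomes and Tbx20 in 10. In all, 6 of the 7 member windows lay under a peak in at least 10 libraries, against 3.01% of the 21263 promoter windows of protein-coding genes. The exception was Tbx18, whose window lay under a peak in 7 libraries. The windows printed held 26 CpG at Tbx20, 26 and 16 at Tbx1, 17 at T and 10 at Eomes, against a median of 13 over all promoter windows. The member windows not printed held 8 CpG at Tbx4, under a peak in 10 libraries, and 15 at Tbx18. The Tbx4 window (chr11:85896515-85896814) lay inside the gene, which spans 85886367 to 85916097, and not at its start end. The Mga window likewise lay inside its gene, which spans 119872503 to 119970129. Windows under a peak in at least 10 libraries had a median of 20 CpG. The Mga window held 24 CpG, close to the Tbx1 and Tbx20 windows, and was called in 0 libraries, so CpG number alone did not separate the called from the uncalled T-box promoters. The heptamer GGTGTGA, the core of the site bound by T-box proteins in many species, was searched on both strands (its reverse complement is TCACACC). It was found in 0 T-box promoter windows and in 3.68% of all windows.

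The mark was present at nearly all T-box members in nearly all embryos. Of the 10 members, 9 had a peak in 10 or more of the 12 libraries, against a background of 5.93% of protein-coding genes. T, Tbx1, Tbx2, Tbx3, Tbx4, Tbx5 and Tbx15 (7 of 10) were marked in all 12, against 2.18%. Tbx20 was marked in 11 libraries, Eomes in 10 and Tbx18 in 9. The misses fell in 3 lists. B6 without vitamin C replicate 1, with a median peak width of 1.32 kb, lacked Eomes and Tbx18. B6 without vitamin C replicate 2, the list of 748 peaks, lacked Eomes, Tbx18 and Tbx20. 129 without vitamin C replicate 2, the shortest 129 list with 1388 peaks, lacked Tbx18.

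How much of each gene lay under peaks differed widely between members. By the median percent of the window covered over 12 libraries, the order was Tbx1 and Tbx2 (100% each), Tbx3 (95.5%), T (70.5%), Eomes (54.4%), Tbx4 (44.6%), Tbx5 (35.4%), Tbx15 (19.3%), Tbx18 (12.3%) and Tbx20 (10.5%). The order held in every library for 3 neighbouring pairs: Tbx4 was above Tbx5, Tbx5 above Tbx15 and Tbx15 above Tbx18 in 12 of 12. The whole window was covered in at least 6 libraries at Tbx1, Tbx2 and Tbx3, as at 1.11% of protein-coding genes. Other neighbours did not separate. T was above Eomes in 6 libraries and below it in 6, Tbx18 was above Tbx20 in 6 and below it in 5, and Tbx1 and Tbx2 were equal in 7. In kb under peaks the order was another one. Tbx5 led with a median of 32.1 kb, followed by Tbx15 with 22.4 kb, Tbx3 with 15.5 kb and Tbx4 with 14.2 kb, while Tbx18 had the least with 3.76 kb.

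**Figure D1:**
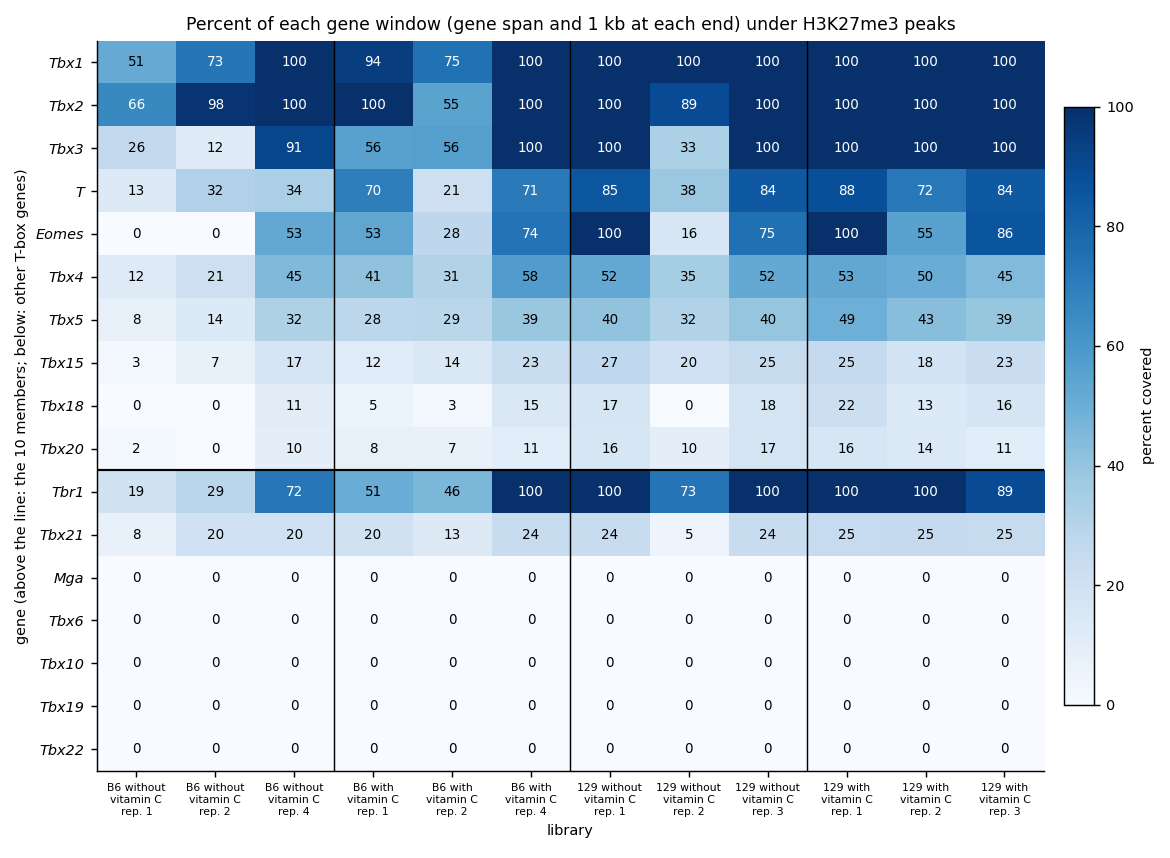
Percent of the gene window under H3K27me3 peaks for the 10 members (rows above the line) and the 7 further T-box genes (rows below it) in each of the 12 libraries (columns); darker cells mean more of the window covered. Tbx1 was fully covered in all 6 libraries of 129, whereas Mga, Tbx6, Tbx10, Tbx19 and Tbx22 had no peak in any library.

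T and Eomes act first, at gastrulation. T (chromosome 17, 8434423 to 8442496, plus strand) is required for the notochord and posterior mesoderm. It had exactly 1 peak in every library, which was 1.30 to 17.1 kb wide. T window coverage was 13.0, 32.0 and 33.6% in B6 without vitamin C against 69.7, 21.3 and 71.3% in B6 with it. In 129 T coverage was 85.4, 38.2 and 84.1% without and 88.2, 71.9 and 84.1% with vitamin C. The lowest library of 129 thus lay above every B6 library without vitamin C, and B6 with vitamin C overlapped both. Peaks reached up to 9.22 kb upstream of the T start and lay over the start in 10 libraries, but none reached the far end of the gene. The stretch called in the most libraries (11) was 0.53 to 2.22 kb downstream of the start. The region also holds the annotated coding locus LOC115486424.

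Eomes (chromosome 9, 118478186 to 118486132, plus strand), a factor of mesoderm and endoderm formation and later of cortical progenitors, had the weakest peaks of the members by rank. Its coverage was 0, 0 and 52.6% in B6 without vitamin C against 53.5, 27.7 and 73.9% in B6 with it. In 129 Eomes coverage was 100, 15.7 and 75.2% without and 100, 55.3 and 85.6% with vitamin C. The groups overlapped in both backgrounds. A peak lay over the Eomes start in 10 libraries, and in 5 of these a second block lay past the middle of the gene and over or beyond its far end. In 2 libraries of 129 a single peak of 22.5 or 25.3 kb covered both blocks and the whole gene.

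Tbx1 (chromosome 16, 18580979 to 18590671, minus strand), a regulator of the pharyngeal arches and outflow tract, was covered along its whole length. Coverage was 51.3, 72.7 and 100% in B6 without vitamin C, 94.3, 74.7 and 100% in B6 with it, and 100% in all 6 libraries of 129. A single peak spanned the gene in 8 libraries. Tbx20 (chromosome 9, 24720812 to 24774303, minus strand), needed for heart chamber formation, had its peaks at the start end only. Tbx20 coverage was 1.59, 0 and 9.96% in B6 without and 8.12, 7.16 and 10.8% in B6 with vitamin C, and 15.9, 10.1 and 17.4% in 129 without and 16.4, 13.7 and 10.9% in 129 with it. A B6 library reached the level of 129 only in the case of B6 with vitamin C replicate 4. At the start end the region stretched 9.56 kb beyond the gene, and most of the Tbx20 body was called in 0 libraries.

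**Figure D2:**
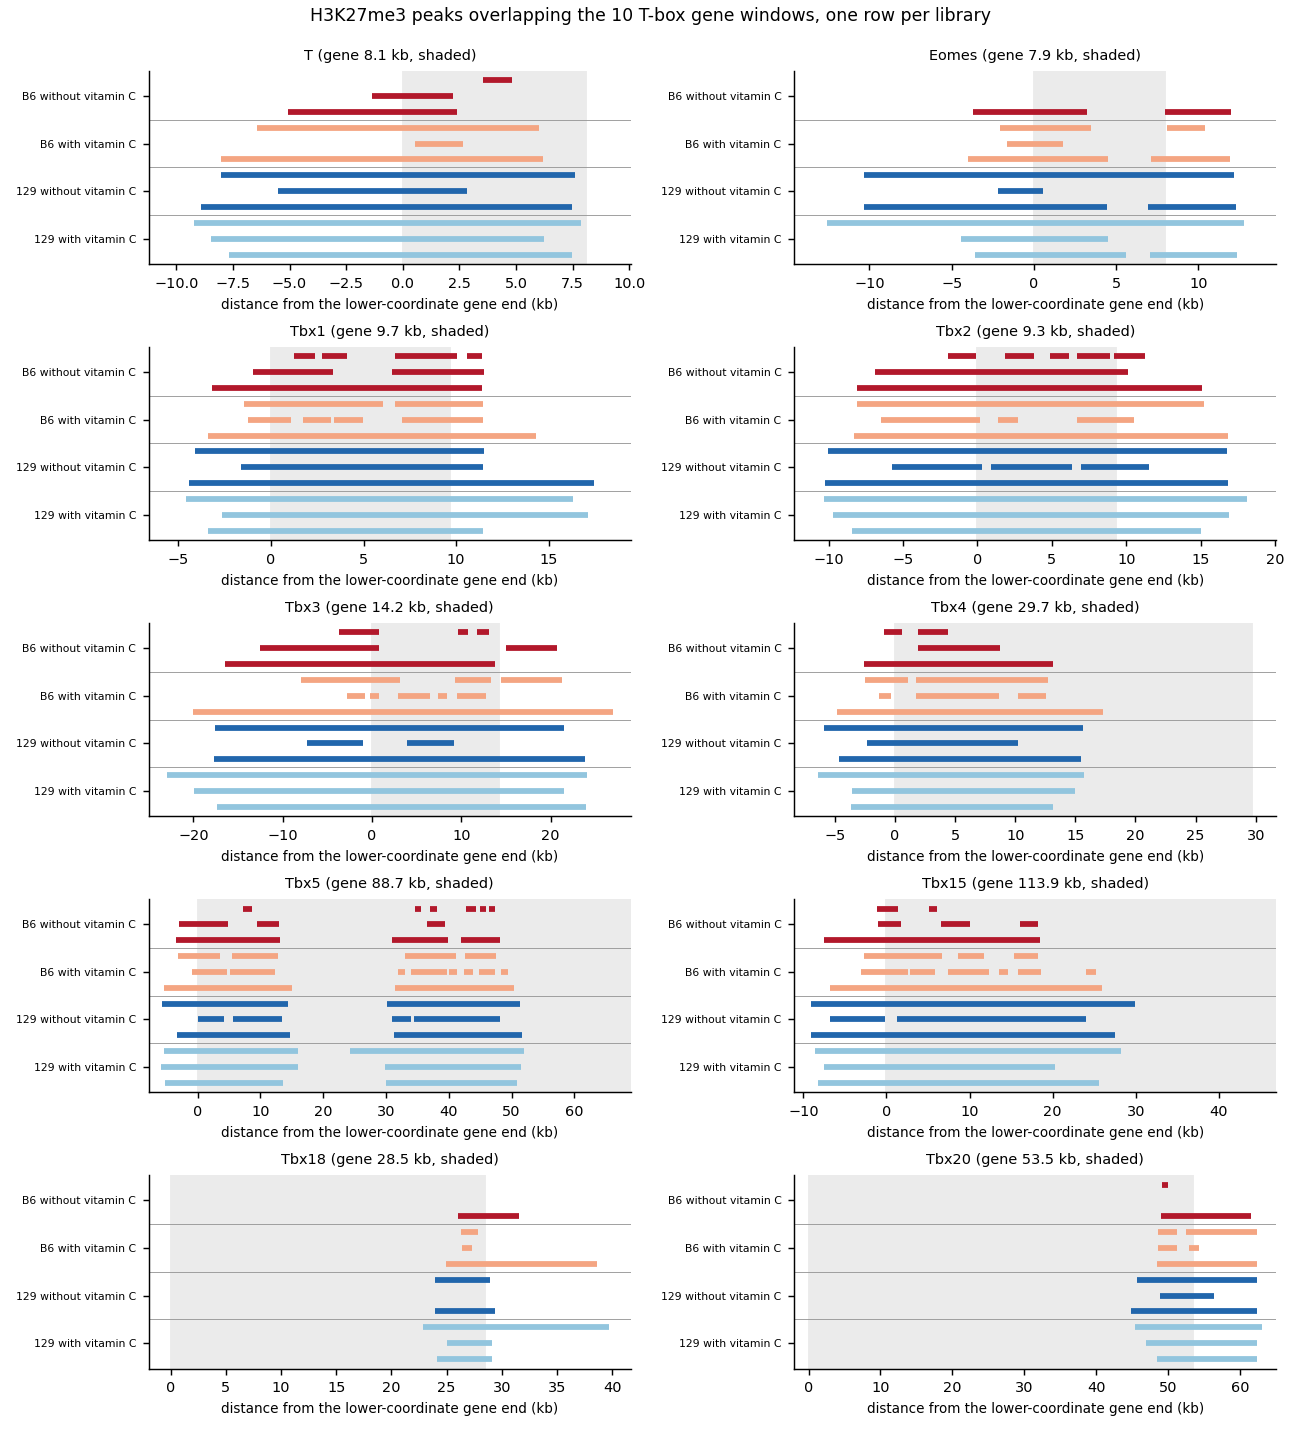
Peaks overlapping each member's window, drawn as bars by distance in kb from the gene's lower-coordinate end, with 1 row per library (in order of replicate number within each group) and the gene shaded; the panels of Tbx5 and Tbx15 stop before the far end of the gene. Peaks run across the whole of Tbx1, Tbx2 and Tbx3 in at least 6 libraries each, stay at 1 end of Tbx4, Tbx15, Tbx18 and Tbx20, and form separate blocks at Tbx5.

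Tbx2, Tbx3, Tbx4 and Tbx5 form linked pairs, with Tbx2 beside Tbx4 on chromosome 11 and Tbx3 beside Tbx5 on chromosome 5. Tbx2 and Tbx3 encode close relatives that act mainly as repressors in the heart, limb and eye, Tbx4 is known for the hindlimb and Tbx5 for the forelimb and heart. In each pair the median percent covered of the repressor gene was close to complete and that of the limb gene was partial. The genes differ in length, as Tbx2 and Tbx3 span 9.33 and 14.2 kb and Tbx4 and Tbx5 29.7 and 88.7 kb. In median kb under peaks the limb genes were higher. Tbx4 had 14.2 kb against 11.3 kb at Tbx2, and Tbx5 had 32.1 kb against 15.5 kb at Tbx3. The part of gene length in the percentages was not tested. Tbx2 (85832615 to 85841948) had the highest signal of the members by rank, its strongest peak lying at a median percentile of 93.0 of its list by maximum signal. A single peak spanned Tbx2 in 9 libraries. The called region reached 10.3 kb below and 8.76 kb above the gene and touched Bcas3, its neighbour. Tbx2 coverage was 66.0, 98.1 and 100% in B6 without and 100, 54.7 and 100% in B6 with vitamin C, and 100, 89.4 and 100% in 129 without and 100% in each library of 129 with it.

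Tbx3 (119670534 to 119684724) had the widest peaks of the members, with a median of 34.6 kb for the widest peak per library and a maximum of 47.1 kb. Tbx3 coverage was 26.0, 12.4 and 91.0% in B6 without and 55.6, 56.5 and 100% in B6 with vitamin C. In 129 it was 100, 32.9 and 100% without and 100% in each library with vitamin C. Within each background the groups overlapped or met, because at least 1 library without vitamin C reached the range of those with it. The stretch called in all 12 libraries lay outside the gene, 0.96 to 2.83 kb below its lower-coordinate end, and the region reached 23.0 kb beyond that end.

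Tbx4 (85886367 to 85916097, plus strand) was covered from its start end, and peaks stopped at least 12.4 kb short of the far end in every library. Tbx5 (119796514 to 119885220) had separate blocks of the mark. Peaks lay toward its lower-coordinate end and in the interior in all 12 libraries. Those toward the lower-coordinate end did not share 1 position, and lay over the end itself in 10 libraries. The 8.18 kb between these parts, 16.0 to 24.2 kb from that end, lay under a peak in 0 libraries. The stretch of Tbx5 called in the most libraries (12) lay in the interior, 36.9 to 38.2 kb from the end. In every library the strongest peak's maximum lay inside the gene. Tbx5 coverage was 7.99, 13.5 and 32.2% in B6 without and 27.7, 28.7 and 38.6% in B6 with vitamin C. In 129 Tbx5 coverage was 40.2, 31.6 and 39.8% without and 49.3, 42.6 and 39.2% with vitamin C. The diet groups of Tbx5 overlapped in each background.

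The stretches between the linked genes were covered far less than the genes. Of the 44.4 kb between Tbx2 and Tbx4 a median of 20.0% lay under peaks (1.75 to 34.1% over the libraries). Of the 112 kb between Tbx3 and Tbx5 it was 10.4% (0 to 30.5%). In 0 libraries did a single peak cover both genes of a pair.

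Tbx15 and Tbx18, factors of the dermis, skeleton and somites among other tissues, carried the mark at 1 end. Tbx15 (chromosome 3, 99240348 to 99354260) is the longest member, and its peaks lay at the lower-coordinate end and reached 9.11 kb beyond it, with at least 84.0 kb at the far end free of peaks in every library. Tbx15 coverage ranged from 2.82% in B6 without vitamin C replicate 1 to 26.7% in 129 without vitamin C replicate 1. Tbx18 (chromosome 9, 87702800 to 87731260, minus strand), which also marks the epicardium, had the narrowest peaks of the members with a median of 5.03 kb. Tbx18 coverage was 0, 0 and 11.3% in B6 without and 5.11, 2.95 and 14.8% in B6 with vitamin C, and 16.5, 0 and 17.7% in 129 without and 21.8, 13.4 and 16.4% in 129 with it. Its peaks lay around the start, and no stretch of Tbx18 was called in more than 9 libraries.

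Of 16 nearest coding genes on either side of the members, 4 (25.0%) were marked in at least 10 libraries, against 5.93% of protein-coding genes, and 11 in none. The nearest coding genes around Eomes, Tbx15 and Tbx20 (6 in all) were marked in 0 libraries, as were Gnb1l beside Tbx1, Med13l beside Tbx3, Brip1 beside Tbx4, Rbm19 beside Tbx5 and Cep162 beside Tbx18. Marked neighbours were Bcas3 (12 libraries), Gp1bb (12), Pde10a (11), Nt5e (10) and T2 (4), of which Gp1bb, Pde10a and Nt5e lie 29.6, 82.7 and 596.3 kb away.

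The rank of the strongest peak gave another order than coverage. A peak overlapping the window was ranked by its maximum wherever that lay, also outside the window. By the median percentile of maximum signal in the libraries where the gene was marked, Tbx2 (93.0), Tbx4 (90.0) and Tbx1 (89.0) led, and Tbx18 (71.6) and Eomes (59.5) were last. Tbx2 and Tbx4 lay in the highest 10% of the list in at least 6 libraries, as did 1.01% of protein-coding genes. Tbx20, the least covered member, lay at 82.1, close to Tbx5 (81.9) and Tbx15 (80.7). Signals were not scaled between libraries, so only these ranks within a list were used.

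The other T-box genes fell into both extremes. Tbr1, a factor of cortical neurons, and Tbx21, which directs T helper cells, were marked in all 12 libraries. Tbr1 coverage was 19.2, 28.5 and 72.3% in B6 without and 50.7, 45.9 and 100% in B6 with vitamin C, and 73.2 to 100% in 129, while Tbx21 had a median of 22.1%. Tbx6, a gene of presomitic mesoderm, Tbx19, a pituitary factor, Tbx22, a gene of the palate, Tbx10 and Mga, whose product joins a variant Polycomb complex, had no peak in any library. Of 16 known partners and targets of T-box factors, 9 had a peak in 10 or more libraries and 3 in all 12, the heart factors Nkx2-5, Gata4 and Hand2. The mesoderm genes Mesp1 and Mixl1 and the signal genes Fgf8 and Wnt3a were marked in 10 or 11, whereas Nppa, Gja5, Fgf10 and Msgn1 were marked in 0. This list was written from general knowledge, and the share of all protein-coding genes stands at 5.93% for at least 10 libraries.

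The first comparison was between embryos without and with vitamin C. T-box coverage was lower on average without vitamin C, but for no member did the difference pass the test, and coverage of all marked genes differed in the same direction. The mean over the 10 members was 31.0 ± 16.2% in B6 without and 45.9 ± 13.6% in B6 with vitamin C (SD, n = 3 each). In 129 it was 54.1 ± 14.5% without and 60.8 ± 4.42% with vitamin C. Over both backgrounds the difference, without minus with vitamin C, was below 0 for 10 of 10 members, as it was for 87.4% of the 3139 genes marked in at least 3 libraries (14.3% of all), which were the genes tested. The median difference was -8.70 percentage points over the members and -3.21 over all genes tested. A gene tested needed a peak in only 3 libraries, and the members had one in 9 to 12. Coverage differences in points of the members and of all genes tested are therefore not like for like, here and between backgrounds. The mean coverage of all genes tested stood at 12.9 ± 9.34% in B6 without and 22.0 ± 10.3% in B6 with vitamin C, and at 26.6 ± 12.8% in 129 without and 31.5 ± 6.16% in 129 with it, in the same direction as the members. The part of list length and peak width in the T-box differences was not tested.

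The differences of single members were unequal, and none passed the test. The largest differences over both backgrounds were those of Eomes (-25.4 points, exact permutation p = 0.16), Tbx3 (-25.0 points, exact permutation p = 0.2) and T (-20.1 points, exact permutation p = 0.15). Tbx5 had the lowest p, with 17.9 ± 12.7% in B6 without against 31.7 ± 6.02% in B6 with vitamin C and 37.2 ± 4.88% in 129 without against 43.7 ± 5.15% in 129 with it (-10.1 points, exact permutation p = 0.075, adjusted p = 0.767). Tbx2 differed by -0.22 points (exact permutation p = 1). The test permuted diet labels within background (400 relabellings, two-sided, smallest possible p 0.005) and was adjusted by Benjamini-Hochberg over the 3139 genes. Of these, 0 passed an adjusted p of 0.05 and 71 (2.26%) had an unadjusted p under 0.05, with 0 members among them. With limma on the same values 0 genes passed after adjustment and 117 before it, 1 of them a member, Tbx5 (limma, adjusted p = 0.737).

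**Figure D3:**
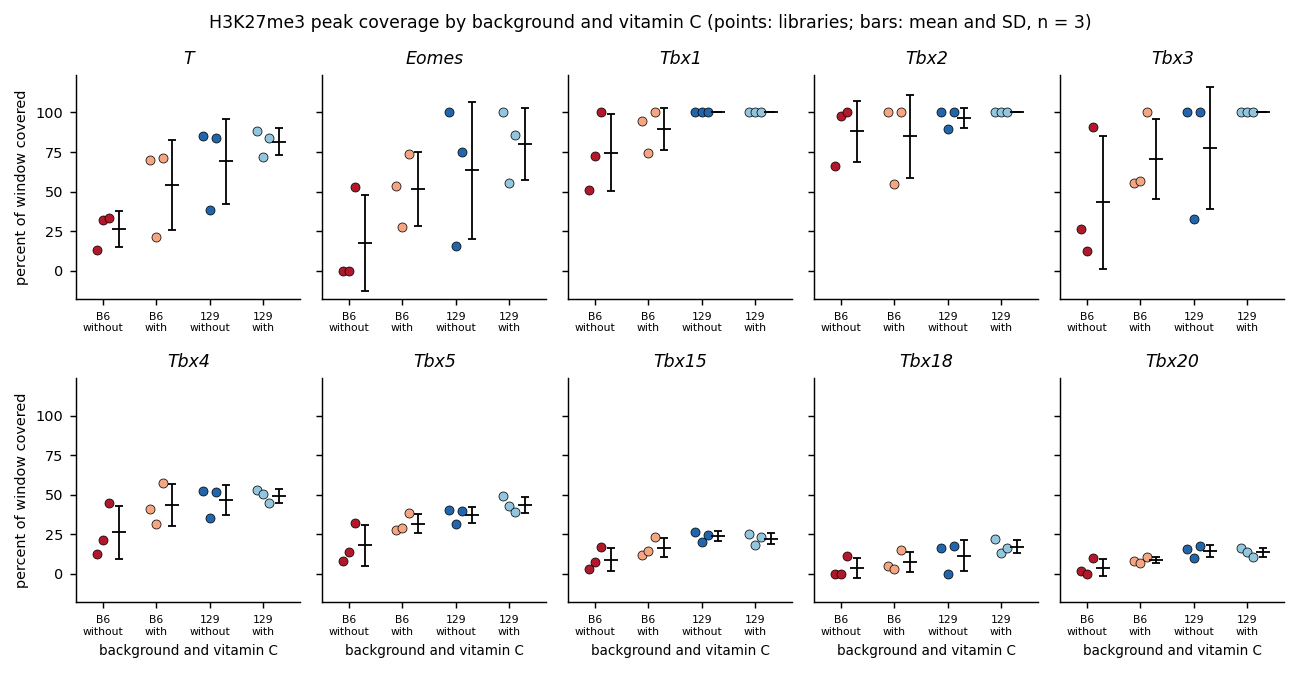
Percent of each member's window under peaks by background and vitamin C (points: libraries; bars beside them: mean ± SD, n = 3; bars can run past 0 or 100 because they are symmetric). The diet groups overlap or meet for every member in both backgrounds.

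Within one background, 3 libraries against 3 allow no p below 0.1. In B6, 9 of 10 members had a lower mean without vitamin C, with Tbx2 the exception, as did 92.4% of genes tested, and the mean difference over the members was -14.9 points. In 129, 7 members had a lower mean without vitamin C (71% of genes tested), Tbx15 and Tbx20 a higher one, and Tbx1 was at 100% in both groups; the mean difference was -6.72 points. The 129 value rests on 1 library. Without 129 without vitamin C replicate 2 it was 1.62 points. That library had the shortest list of 129, and it was the lowest of the 6 libraries of 129 for 8 of the 10 members, the exceptions being Tbx1 and Tbx15. In neither background did any member show libraries without vitamin C that all lay below those with it, a pattern that 3.66% of genes tested had in B6 and 4.4% in 129. The diet difference in B6 minus that in 129 had no p below 0.175 among the members (exact permutation of diet labels within background, adjusted p = 1), and over all genes 0 passed after adjustment and 3 (0.0956%) before it.

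By rank of the strongest peak, Tbx3 had the lowest p of the members for diet, without passing adjustment. The ranks come from lists of 748 to 4726 peaks, so they describe each list, and a difference between groups in rank shows no change in the mark. The strongest Tbx3 peak lay at percentiles 60.1, 68.8 and 59.3 in B6 without vitamin C and at 95.1, 93.3 and 95.1 in B6 with it. In 129 these Tbx3 percentiles were 77.4, 54.6 and 79.9 without and 84.8, 70.3 and 85.4 with vitamin C. The maxima ranked lay at different positions, inside the gene in 4 of 12 libraries. From the lower-coordinate end they lay at 12.2, -6.94 and -11.6 kb in B6 without vitamin C. In B6 with it they lay at 0.277, -1.82 and 0.285 kb, and in 129 as far out as -13.7 kb. By percentile the B6 groups did not overlap, a pattern that 12.9% of genes tested shared in that direction, and the 129 groups did. The like pattern in 129 was found at 2.42% of genes tested. Over both backgrounds the Tbx3 difference was -20.6 percentile points (exact permutation p = 0.025, adjusted p = 0.733). With each list held to 748 peaks the Tbx3 difference was -22.7 points (exact permutation p = 0.095), and by total signal it was -1.78 points (exact permutation p = 0.55). Tbx18 followed with -41.5 points (exact permutation p = 0.05), with 0 entered where it had no peak, and -1.003 on equal lists (exact permutation p = 1). The differences of 9 of 10 members were below 0, against 83.2% of all genes tested, and the members' median of -8.75 lay beside one of -10.1 over all genes. In every rank comparison 0 was entered for a gene without a peak. Genes tested needed a peak in only 3 libraries, whereas the members had one in 9 to 12. Rank values of the members and of all genes are therefore not like for like. Of all genes, 0 passed an adjusted p of 0.05 and 158 (5.03%) an unadjusted one, of which Tbx3 was the only member below it.

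The T values lay in opposite directions in the backgrounds by this measure. Its strongest peak lay at percentiles 10.4, 54.8 and 54.1 in B6 without vitamin C and at 57.1, 89.5 and 82.0 in B6 with it. In 129 the T percentiles were 95.9, 87.4 and 86.4 without and 82.7, 56.5 and 79.0 with vitamin C. Thus every B6 library without vitamin C was below every one with it, and every 129 library without vitamin C was above every one with it, a pattern shared by 0.319% of genes tested. Whatever the other background showed, the 129 pattern was found at 2.2% of genes tested and the B6 pattern at 12.9%. The maximum of the strongest T peak did not lie at 1 site. From the start of T it lay at -6.82 and -2.47 kb in 129 without vitamin C replicates 1 and 3. In 129 with vitamin C replicate 1 it lay at -6.81 kb. These maxima were outside the T window, and in the other libraries the maximum lay from -0.09 to 4.14 kb. For T the diet difference in rank in B6 minus that in 129 was -53.6 percentile points (exact permutation p = 0.005, the smallest that 400 relabellings can give, adjusted p = 0.876 over 3139 genes). The median of this difference was -18.1 points over all genes tested and -21.1 over the members, of which 9 were below 0. Tbx1 also had an unadjusted p under 0.05 (-23.2 points, exact permutation p = 0.02, adjusted p = 0.876). Of all genes tested 2.8% had an unadjusted p under 0.05 in this comparison and 0 passed after adjustment. This test was added after the T values had been seen. On equal lists of 748 peaks the T difference was -26.8 points (exact permutation p = 0.295), and by total signal -46.3 points (exact permutation p = 0.15). Over both backgrounds the diet difference in the rank of T was -9.65 points (exact permutation p = 0.555), and 18.8 points on equal lists (exact permutation p = 0.15). Coverage of T did not show the opposite directions, as the mean was lower without vitamin C in both backgrounds.

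**Figure D4:**
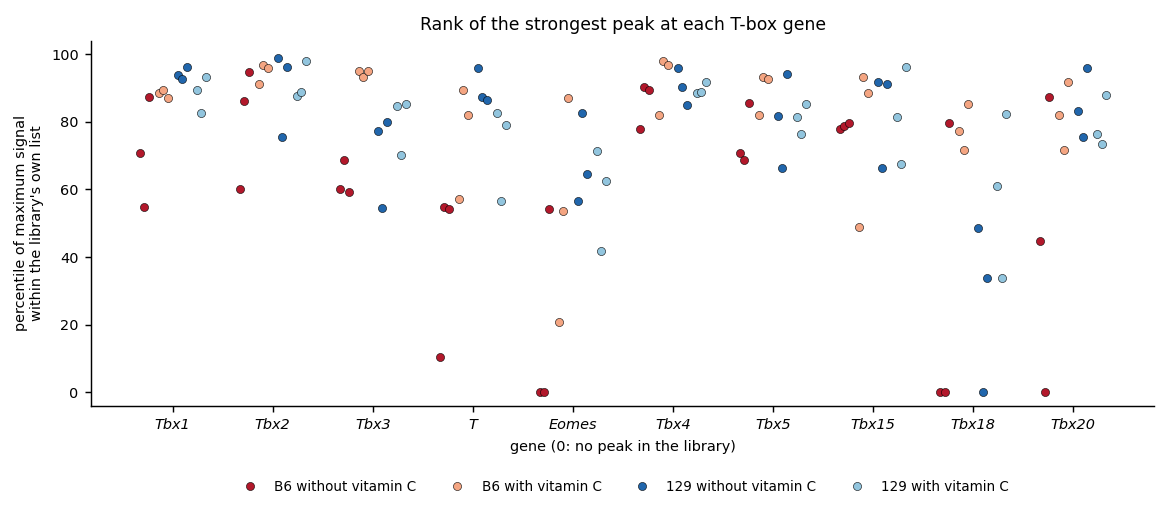
Percentile of the maximum signal of the strongest peak at each member within the library's own list, with 1 point per library in the order B6 without, B6 with, 129 without and 129 with vitamin C, and 0 where the list had no peak. At Tbx3 the B6 libraries without vitamin C lie at 59.3 to 68.8 and those with it at 93.3 to 95.1. The maxima ranked lie at different positions in these libraries, some of them outside the Tbx3 window.

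The second comparison was between the B6 and 129 backgrounds. All 10 members had a lower mean coverage in B6, as did 94.5% of all genes tested. The mean over the members was 38.5 ± 15.7% in B6 and 57.4 ± 10.3% in 129 (SD, n = 6 each), beside 17.4 ± 10.1% and 29.1 ± 9.40% for all genes tested in B6 and in 129. T averaged 40.1 ± 24.7% in B6 and 75.3 ± 19.0% in 129 (difference -35.2 points, exact permutation p = 0.005). Tbx20 averaged 6.27 ± 4.46% in B6 and 14.1 ± 3.03% in 129 (difference -7.80 points, exact permutation p = 0.005). Tbx5 (-15.7 points, exact permutation p = 0.015) and Tbx15 (-10.3 points, exact permutation p = 0.02) also had an unadjusted p under 0.05. These 4 members stand beside 18.5% of all genes tested that were lower in B6 at that threshold.

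Neither T nor any other member passed after adjustment over the 3139 genes (adjusted p from 0.22 to 0.464 by the exact permutation test of background labels within diet). Over all genes, 0 passed an adjusted p of 0.05 and 584 an unadjusted one. With limma 4 genes passed after adjustment, none of them a member, and 705 before it, of which 7 were members. For no member did all 6 libraries of B6 lie below all 6 of 129, a pattern that 0.605% of genes tested had. By rank of the strongest peak 7 members were lower and 3 higher in B6 (lower in 73.3% of genes tested), with no p below 0.07 (exact permutation), while 4.71% of genes had an unadjusted p under 0.05. The members' median difference in rank was -3.95 and that of all genes tested -6.996.

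T-box coverage followed the coverage of the whole list from library to library. The mean over the members ran from 18.1% in B6 without vitamin C replicate 1, where all genes tested averaged 6.98%, to 65.4% in 129 with vitamin C replicate 1, where they averaged 38.4%. When each list was held to its 748 peaks of largest total signal, 7 of 10 members were still marked in at least 10 libraries, against 2.15% of protein-coding genes. Tbx18 was then marked in 3, Eomes in 7 and Tbx20 in 9 libraries.

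**Figure D5:**
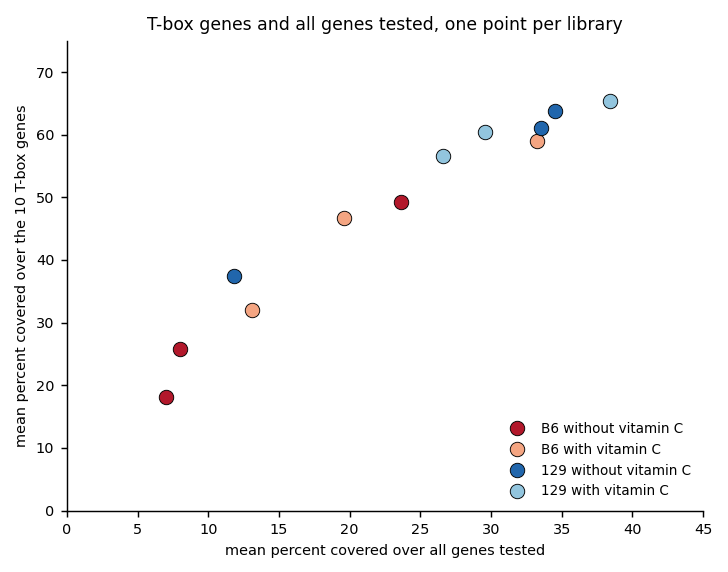
Mean percent covered over the 10 members (vertical axis) against the mean over all genes marked in at least 3 libraries (horizontal axis), with 1 point per library, coloured by group. The members lie above the value of all genes in each of the 12 libraries and rise with it, and the 2 lowest points are B6 libraries without vitamin C. The heights are not like for like, because genes on the horizontal axis needed a peak in only 3 libraries and the members had one in 9 to 12.

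The genes whose coverage correlated most with that of the T-box members over the 12 libraries were Col8a2 (r = 0.99), a collagen gene, Shroom1 (r = 0.99), Nkx6-3 (r = 0.99), a homeobox gene, Cacna1e (r = 0.98), a calcium channel gene, and Cdh23 (r = 0.98), a cadherin gene. They were not alike in level, as their median coverage ran from 1.78% at Cdh23 and 1.92% at Cacna1e to 90.7% at Shroom1. These are Pearson correlations with the members' mean among 2372 genes marked in at least 6 libraries and over 1 Mb from any member. The median over those genes was 0.83. The members' mean itself had r = 0.94 with the covered length of the lists. The values of the members and of each such gene come from the same 12 libraries, so differences between libraries in list length and covered length enter both.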

How the data were processed

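Peaks were compared in 12 H3K27me3 CUT&Tag libraries. Per the submitters' processing notes, cutadapt, Bowtie2, Picard and SEACR were used with the build mm10. Tool versions, settings and any role of the IgG libraries in peak calling were not given in the sources used here. A deposited list has 1 line per peak of its library in 6 columns, with position, total signal and maximum signal. The authors deposited these signal values with no stated scaling between libraries, so signal was used only for ranks and filters within a list. Depth is unknown.

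Gene spans came from RefSeq on GRCm38.p6, and coordinates are 1-based. For each protein-coding gene, presence of a peak, widest peak, percent of the window covered and percentile of maximum signal (0 without a peak) were computed in Python 3.11.15 with NumPy 2.4.6, pandas 2.3.3 and SciPy 1.17.1. Figures used Matplotlib 3.10.9. Genes marked in at least 3 libraries were tested by exact two-sided permutation of labels within background (diet) or within diet (background), with Benjamini-Hochberg adjustment over all of them. The threshold was 0.05. limma 3.58.1 (R 4.3.3) was an alternative, and both tests were tested on simulated data. Replicates are separate embryos per the labels, and nothing pairs them across groups.

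The members and gene lists were chosen with earlier results of these data known. Named genes are the members, the gene lists, coding genes within or beside a member's region, and the 5 genes most correlated in coverage. Alternatives were gene windows of 0 and 5 kb, equal lists of 748 peaks, only peaks 1 kb or wider, only peaks in the upper part of their list (from its median maximum signal), peaks under 5 kb apart joined, a minimum of 10% covered, genes marked in at least 1 library, total signal, averaged embryos of 1 pregnancy code, and omission of libraries.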

Additional observations from a re-analysis of the deposited data

Results flagged for a closer look

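The rank of the strongest T peak was lower without than with vitamin C in every B6 library and higher in every 129 library. The difference in B6 minus that in 129 was -53.6 percentile points (exact permutation p = 0.005, adjusted p = 0.876 over all genes tested, so it fails the correction), by a test added after the T values had been seen. It was -26.8 with equal lists (exact permutation p = 0.295), -46.3 by total signal (exact permutation p = 0.15) and -32.2 without the 2 libraries of the shortest peaks (exact permutation p = 0.0167). The ranks come from lists of unequal length, and in 129 some of the maxima ranked lay outside the T window. The median of this difference was -18.1 percentile points over all genes tested. The B6 libraries with vitamin C share a pregnancy code, and the part of litter in this pattern was not tested.

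Within the 6 libraries of a background, which span both diets, 6 of 43 sets of values held a library far from the others (Dixon's criterion, which chance meets in about 1 of 20 sets). In 129, replicate 2 without vitamin C stood below the other libraries in coverage of T (38.2%), Tbx2 (89.4%), Tbx3 (32.9%) and the mean of the members (37.4%). Its list held 1388 peaks, the fewest of 129. For Tbx2 and Tbx3 the other 5 libraries were all at 100%, so any value below 100% there meets the criterion and the rate of chance does not apply. In B6, replicate 1 without vitamin C stood apart in the rank of the strongest Tbx2 peak (percentile 60.1), and replicate 1 with vitamin C in that of Tbx15 (percentile 48.8).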

How the results depend on the processing

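No paired analysis was possible because the labels give no number that ties embryos across groups. Mean differences over the members kept their direction in every alternative with all libraries kept. With single libraries left out, the diet difference in coverage ran from -15.3 to -6.62 points over both backgrounds, from -24.0 to -8.30 in B6 and from -11.6 to 1.62 in 129. The background difference ran from -23.5 to -15.5, and the diet difference in B6 minus that in 129 from -17.2 to -1.57. In rank, the diet difference ran from -17.1 to -9.59 and the background difference from -12.4 to -4.92. Members marked in all but 2 libraries or more numbered 9 as reported, 7 with equal lists, 8 with peaks at or above the median maximum signal, 8 with at least 10% of the window covered, and 9 or 10 in the other alternatives. Genes passing after adjustment numbered 0 in every setting except limma for background (4). Genes with an unadjusted p under 0.05 numbered 23 to 216 for diet and 297 to 1120 for background with single libraries left out.

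Some differences of single members changed sign, none of them past the test in any setting, and the cause was not tested. For Tbx2 coverage the diet difference was 0.29 without window extension and ran from -7.77 to 5.29 with single libraries left out. It was above 0 when the library left out was B6 without vitamin C replicate 1 (5.29), B6 with vitamin C replicate 1 or 4 (3.55 each) or 129 without vitamin C replicate 2 (1.55). With both libraries of the shortest peaks omitted, the background difference in Tbx2 coverage was 1.28 and the diet differences in rank were 1.02 for T and 0.64 for Tbx4. With equal lists the background difference in Tbx18 coverage was 0.70, against -8.64 as reported, and the diet differences in rank were 18.8 for T, against -9.65 as reported, and 9.49 for Tbx1. For Tbx15 the diet difference in rank was 1.63 as reported. It was -9.33 with peaks of at least 1 kb, -0.47 with peaks joined, -16.6 by total signal, and from -5.40 to 5.84 with single libraries left out. Unknown depth limits every comparison of list length and coverage.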
